A study of Mus musculus with 26 samples.

Results

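A set of 37 immediate early and stress genes was chosen by name and followed through the aorta, a large elastic artery, and the mesenteric arteries, the small muscular vessels of the gut. All 37 were found among the 55416 gene identifiers of the aortic tables and the 55414 of the mesenteric tables, and all 37 passed the filter on low counts in every comparison. The mice were male, on a C57BL6J background, and all carried loxP-flanked Sphk1 alleles. Sphk1 encodes sphingosine kinase 1, which makes the signalling lipid sphingosine-1-phosphate. Mice without Cre (Sphk1f/fTagln-cre-, WTf/f in the labels) are called WT, and those with Cre under the smooth muscle promoter SM22α/Tagln (Sphk1f/fTagln-cre+, SMC KO-Sphk1) are called KO. From 12 to 14 weeks of age the mice of the hypertensive groups received angiotensin II (AngII) at 490 ng/kg/min for 14 days from an osmotic minipump, and no separate age is given for sham mice. Each tissue had 4 WT sham, 4 WT AngII and 5 KO AngII libraries, and no sham KO group was analysed here. The labels give these numbers as mice and do not say whether equal numbers in both tissues mark the same mouse.

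Immediate early genes are switched on within minutes of a stimulus by transcription factors that already sit in the cell, and need no new protein for it. Their mRNAs are short-lived, so their level follows recent signalling. Many encode transcription factors themselves: Fos and Jun proteins pair to form AP-1, Egr proteins are zinc finger factors, and Nr4a proteins are orphan nuclear receptors. Others, such as the Dusp phosphatases, Zfp36 and Socs3, shut the signal off again, and Hspa1a, Hspa1b and Dnajb1 are chaperones of the heat shock response. AngII, a vasoconstrictor peptide, is known to induce Fos, Egr1 and Myc acutely in cultured smooth muscle cells.

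Gene counts per library were 23.49 to 32.25 M for the aorta, against 17.54 to 30.05 M for mesenteric arteries. Sphk1 itself, the deleted gene, had 11.6 to 24.2 CPM (counts scaled to a common library size) in the aortas of WT AngII mice and 1.72 to 3.29 CPM in those of KO AngII mice. In the mesenteric arteries it had 9.84 to 17.8 CPM in WT AngII and 2.89 to 4.94 CPM in KO AngII, again with no overlap. Smooth muscle markers were present in every library, and their summed level was 20810 to 43640 CPM in the aorta. A library in the aorta stood apart for the genes described here: WT AngII replicate 4. For the genes that stood highest in it and for the counts over the 37 genes, values are given with and without it.

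The promoters of the 4 genes that stood highest above the rest of their group in that library, Fosb, Fos, Atf3 and Nr4a1, and that of the chaperone gene Hspa1a are shown first, because these genes carry the pattern described below. Each is the 150 bases before the transcript start in RefSeq (mouse build GRCm38.p6), read 5′ to 3′ on the gene's strand. Capitals mark the letters TGACG or their reverse complement CGTCA, which form the core of the cyclic AMP response element (CRE) bound by CREB and ATF proteins, the TATA box TATAAA, and the heat shock element core GAANNTTC. The regions are chr7:19310046-19310195 on the minus strand for Fosb, chr12:85473740-85473889 on the plus strand for Fos, chr1:191183334-191183483 on the minus strand for Atf3, chr15:101266696-101266845 on the plus strand for Nr4a1, and chr17:34972157-34972306 on the minus strand for Hspa1a.
Fosb: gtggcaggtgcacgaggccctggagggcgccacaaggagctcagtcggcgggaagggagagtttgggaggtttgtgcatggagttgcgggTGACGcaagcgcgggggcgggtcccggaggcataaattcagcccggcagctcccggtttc
Fos: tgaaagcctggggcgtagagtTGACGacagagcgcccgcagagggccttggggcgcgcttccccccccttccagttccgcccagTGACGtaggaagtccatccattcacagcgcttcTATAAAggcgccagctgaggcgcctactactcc
Atf3: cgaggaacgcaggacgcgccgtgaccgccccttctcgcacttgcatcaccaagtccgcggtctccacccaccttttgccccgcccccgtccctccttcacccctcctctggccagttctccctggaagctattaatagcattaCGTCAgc
Nr4a1: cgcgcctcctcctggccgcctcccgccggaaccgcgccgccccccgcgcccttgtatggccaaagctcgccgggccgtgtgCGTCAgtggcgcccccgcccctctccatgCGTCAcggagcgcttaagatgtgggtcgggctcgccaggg
Hspa1a: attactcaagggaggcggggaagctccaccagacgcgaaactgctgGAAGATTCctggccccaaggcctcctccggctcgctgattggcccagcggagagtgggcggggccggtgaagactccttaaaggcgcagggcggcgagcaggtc

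The CRE core was found in each of the 4 promoters of Fosb, Fos, Atf3 and Nr4a1 within these 150 bases, and not in that of Hspa1a. It was added to the search after these sequences were seen. Over both strands, 13.3% of the 32851 promoters searched held it in a window of this length. Shares of all promoters given below are of these. The search left out a whole chromosome and any promoter without a full-length sequence. It covered 30 of the 37 genes, with 37 starts in all, and 7 genes, among them Egr1, had no promoter in it. In the 250 bases before the start, 19 of these 37 starts held the CRE core (17.8% of all promoters). Each start was counted, although some belong to the same gene, such as 5 of Egr2 and 3 of Maff. The full CRE TGACGTCA, which contains the core, was found at 3 of the 37 starts, those of Dusp1, Btg2 and Maff (1.55% of all). The heat shock element core GAANNTTC was found at Fosl2, Jun, Hspa1a and Hspa1b (6.69% of all), and TATAAA at Fos, Nr4a2, Gadd45b and Gadd45g (12.4% of all). The CArG box, the site of serum response factor, was found in 6 promoters, which belong to Egr2, Dusp5 and Zfp36 (1.47% of all). The AP-1 site TGACTCA was found at 0 of the 37 starts (4.46% of all). A match describes letters in this window only.

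**Figure D1:**
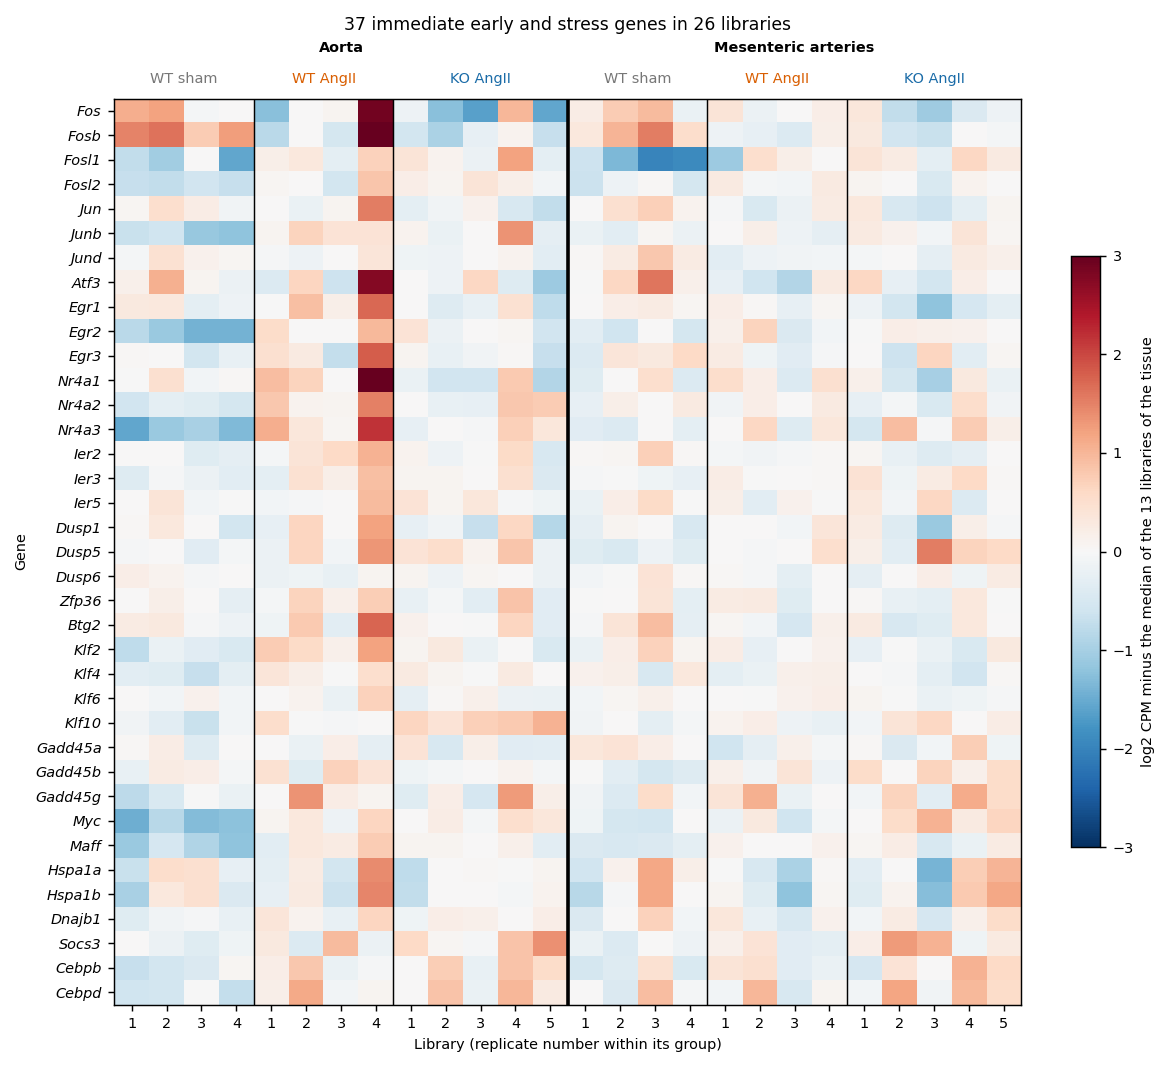
Rows are the 37 genes and columns the 26 libraries, and colour is log2 CPM minus the median of the 13 libraries of the same tissue. Aortic WT AngII replicate 4 is the column with most red cells: it is the highest aortic library for 25 of the 37 genes, and Fosb, Fos, Atf3 and Nr4a1 are darkest there.

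After AngII in WT mice, 11 of the 37 genes rose in the aorta and 0 fell, at an adjusted p below 0.05 in edgeR's quasi-likelihood test. Over all 16863 genes tested 25.5% were called, 14.7% as higher and 10.8% as lower. The fitted change was above 0 for 34 of the 37 genes, against 49.9% of all genes, and the median over the 37 was 0.67 on the log2 scale, against -5e-04 over all genes. The groups did not overlap, with AngII higher, for 11 of the 37 (12.2% of all genes). The rising genes belonged to most of the roles: Fosl2 and Junb of AP-1, Egr2, Nr4a2 and Nr4a3, Ier2, Klf2 and Klf4, Myc and Maff, and the chaperone gene Dnajb1. None of the 3 Dusp phosphatase genes, of Zfp36 and Btg2, of the 3 Gadd45 genes or of Socs3, Cebpb and Cebpd passed the test. The values that follow are CPM in replicate order, ± is a standard error, and fold changes are on the log2 scale.

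Among the AP-1 subunits, Fosl2, a Fos relative that lacks a strong activation domain, had 83.7, 81.3, 91.1 and 83.4 CPM in WT sham, 141, 135, 92.9 and 239 in WT AngII and 156, 143, 176, 152 and 128 in KO AngII. Every AngII library was above every sham library (log2 fold change 0.84 ± 0.21, edgeR adjusted p = 0.0113). Junb, a Jun family subunit, had 20.7, 21.8, 15.1 and 14.4 CPM in WT sham, 34.9, 52.4, 43.9 and 44.4 in WT AngII and 35.5, 29.02, 33.1, 83.9 and 27.2 in KO AngII. Here too the WT AngII libraries all lay above sham (log2 fold change 1.29 ± 0.34, edgeR adjusted p = 0.0164), with KO AngII replicate 4 the highest of all. Fosl1, the least abundant of the 37 per length of transcript, did not pass (log2 fold change 1.05 ± 0.40, edgeR adjusted p = 0.0649). The remaining Jun subunit Jund, the most abundant per length, had a change of -0.10 ± 0.13 (adjusted p = 0.602).

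For Fosb, Fos, Jun and Atf3, and for the Hsp70 genes given further on, the fitted change turned sign without WT AngII replicate 4. Fosb had 36.8, 40.04, 21.98 and 31.1 CPM in WT sham, 7.33, 12.98, 8.93 and 104 in WT AngII and 8.78, 6.74, 10.9, 13.9 and 7.98 in KO AngII. The 3 other WT AngII libraries and all 5 KO libraries lay below the lowest sham library, and WT AngII replicate 4 lay above the highest. With that library the change was 0.03 ± 0.73 (edgeR adjusted p = 0.981), and without it Fosb fell (-1.74 ± 0.28, edgeR adjusted p = 0.000881). Fos, the partner of Jun in the classical AP-1 dimer, had 95.1, 103, 42.4 and 44.4 CPM in WT sham, 18.5, 44.6, 46.9 and 328 in WT AngII and 39.6, 18.6, 14.4, 89.2 and 15.1 in KO AngII. Its groups overlapped, and its change of 0.62 ± 0.88 became -0.96 ± 0.70 without WT AngII replicate 4 (edgeR adjusted p = 0.653 and 0.354).

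Jun had 149.6, 204, 167 and 132 CPM in WT sham, 143, 124, 152 and 412 in WT AngII and 116, 132, 157, 102 and 85.04 in KO AngII. WT AngII replicate 4 was at 2.96 times the mean of the other 3 libraries of its group, which lay within the sham range or below it. The change was 0.35 ± 0.35 with it and -0.23 ± 0.19 without it (edgeR adjusted p = 0.514 and 0.415). Atf3, a stress-induced factor that pairs with Jun proteins, had 33.9, 63.8, 32.2 and 27.2 CPM in WT sham, 23.1, 47.9, 19.9 and 205 in WT AngII and 30.6, 27.3, 47, 23.5 and 14.4 in KO AngII. Its change turned from 0.92 ± 0.69 to -0.38 ± 0.45 without the library (edgeR adjusted p = 0.37 and 0.589).

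Egr2 had 3.41, 2.76, 2.24 and 2.22 CPM in WT sham, 8.85, 6.103, 6.07 and 12 in WT AngII and 8.04, 5.34, 6.05, 6.29 and 4.03 in KO AngII. All 9 AngII libraries were above all sham libraries, and the gene rose 3.10-fold (log2 fold change 1.63 ± 0.25, edgeR adjusted p = 0.000305). Egr1, the most studied Egr factor in vessel injury, had 166, 167, 111 and 122 CPM in WT sham, 133, 253, 152 and 443 in WT AngII and 135, 103, 116, 187 and 79.2 in KO AngII. Its WT groups overlapped and it did not pass (log2 fold change 0.79 ± 0.37, edgeR adjusted p = 0.141), and without replicate 4 the change was 0.34 ± 0.30 (edgeR adjusted p = 0.447). Egr3 had 10.6, 10.4, 7.15 and 8.97 CPM in WT sham, 14.5, 12.6, 6.36 and 36.8 in WT AngII and 11.1, 8.93, 9.71, 10.7 and 6.41 in KO AngII, with replicate 4 again alone at the top (log2 fold change 0.92 ± 0.41, edgeR adjusted p = 0.128). Without that library its change was 0.26 ± 0.25 (edgeR adjusted p = 0.486).

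Of the Nr4a receptors, Nr4a3 showed the largest rise of the 37 genes, 5.29-fold. It had 4.89, 6.78, 7.44 and 5.79 CPM in WT sham, 31.4, 18.5, 15.3 and 66.1 in WT AngII and 12.4, 14.6, 14.4, 24.1 and 18.5 in KO AngII. The rise (log2 fold change 2.40 ± 0.43, edgeR adjusted p = 0.00192) was called without replicate 4 as well (1.80 ± 0.27, edgeR adjusted p = 0.000556). Nr4a2 rose with all libraries (log2 fold change 1.20 ± 0.34, edgeR adjusted p = 0.0234) and missed the threshold without replicate 4 (0.82 ± 0.29, edgeR adjusted p = 0.0549). Nr4a1 had 49.1, 68.8, 46.6 and 50.5 CPM in WT sham, 94.2, 78.1, 49.2 and 398 in WT AngII and 42.97, 32.9, 32.8, 84.2 and 26.6 in KO AngII. Replicate 4 was at 5.40 times the mean of the other 3, and the gene did not pass with it (log2 fold change 1.53 ± 0.61, edgeR adjusted p = 0.0911) or without it (0.46 ± 0.38, edgeR adjusted p = 0.422).

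**Figure D2:**
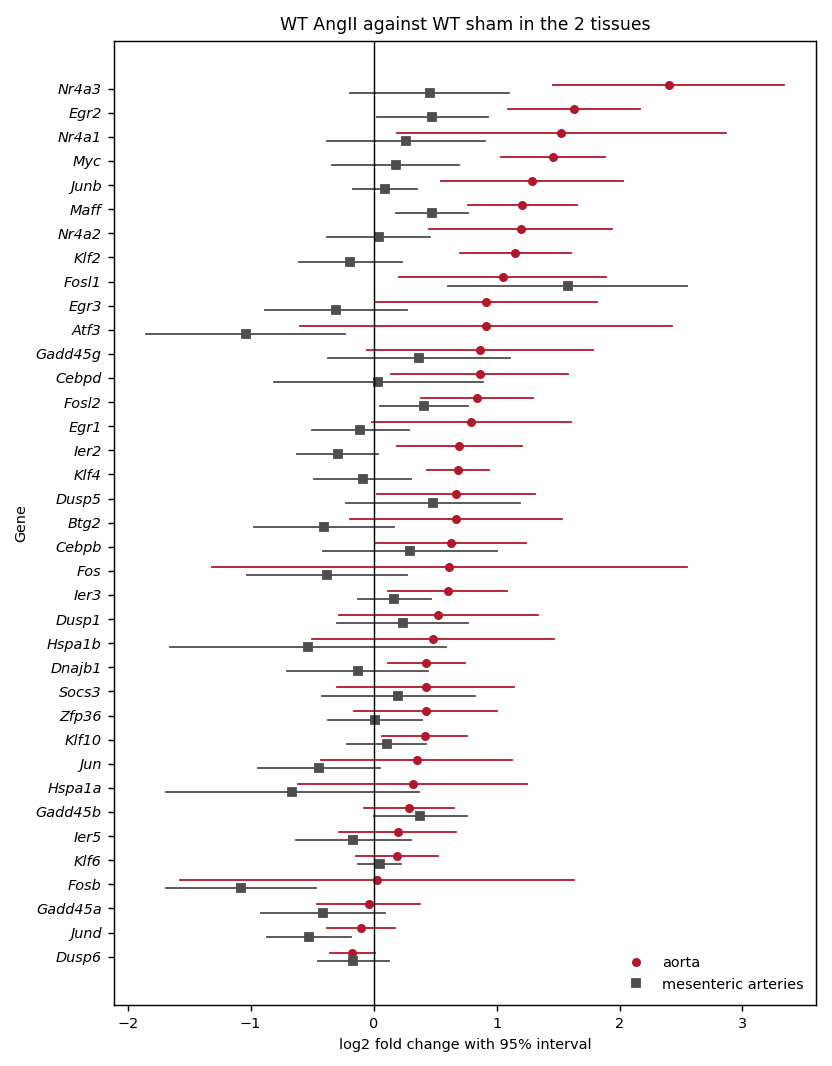
Each row is a gene, with the log2 fold change of WT AngII against WT sham and its 95% interval in the aorta (red circles) and in the mesenteric arteries (grey squares). In the aorta 34 of the 37 points lie right of 0, and in the mesenteric arteries 20 do.

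Klf2 and Klf4, zinc finger factors of quiescent endothelium and of smooth muscle state changes, rose in the aorta. Klf2 had 35.4, 52.3, 47.1 and 43.6 CPM in WT sham, 102, 89.6, 67 and 138 in WT AngII and 63.8, 73, 52.6, 60.01 and 43.7 in KO AngII, with the WT AngII libraries all above sham and the KO libraries running from within the sham range upwards (log2 fold change 1.15 ± 0.21, edgeR adjusted p = 0.00153). Klf4 had 62.3, 59.8, 47.7 and 63.4 CPM in WT sham, 100.2, 87.3, 77.2 and 111 in WT AngII and 93.1, 82.2, 76.4, 93 and 77.4 in KO AngII, with both AngII groups above sham (log2 fold change 0.69 ± 0.12, edgeR adjusted p = 0.000694). Klf6 did not pass (log2 fold change 0.19 ± 0.16, edgeR adjusted p = 0.402).

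Myc, a transcription factor of cell growth, and Maff, a small Maf protein, rose with no overlap between groups. Myc had 2.07, 3.24, 2.31 and 2.43 CPM in WT sham, 6.11, 7.28, 5.21 and 9.05 in WT AngII and 5.79, 6.81, 5.596, 8.28 and 7.37 in KO AngII, and rose 2.75-fold (log2 fold change 1.46 ± 0.20, edgeR adjusted p = 0.000118). Maff had 11.6, 17.7, 13.3 and 10.7 CPM in WT sham, 19.98, 31.3, 29.5 and 42.5 in WT AngII and 26.5, 26.6, 25.01, 27.97 and 20.2 in KO AngII (log2 fold change 1.21 ± 0.21, edgeR adjusted p = 0.000902). In both genes the KO AngII libraries overlapped the WT AngII libraries and lay above all sham libraries.

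Ier2 had 25.6, 25.6, 19.7 and 21.3 CPM in WT sham, 24.5, 33.6, 39.01 and 52.5 in WT AngII and 27.4, 23.1, 25.4, 38.3 and 18.3 in KO AngII. It was called with all libraries (log2 fold change 0.70 ± 0.24, edgeR adjusted p = 0.0458) and not without replicate 4 (edgeR adjusted p = 0.128). Dnajb1, the co-chaperone of Hsp70, was called with all libraries (log2 fold change 0.43 ± 0.14, edgeR adjusted p = 0.0419) and likewise not without replicate 4 (edgeR adjusted p = 0.115). Of 20 alternatives, 12 lost the call of Ier2 and 13 that of Dnajb1. The Hsp70 gene Hspa1a had 39.4, 91.02, 88.5 and 52.9 CPM in WT sham, 51.7, 74.4, 42.6 and 169 in WT AngII and 36.96, 62.97, 64.2, 62.9 and 66.5 in KO AngII (log2 fold change 0.32 ± 0.42, edgeR adjusted p = 0.63). Without replicate 4 its change was -0.28 ± 0.32 (edgeR adjusted p = 0.58). Hspa1b is its near-identical copy, with 0.49 ± 0.45 and -0.12 ± 0.35, and how the authors' counting split reads between the copies is uncertain.

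Feedback genes and the stress gene Gadd45b did not pass. Dusp1, the phosphatase that switches off p38 and JNK, had 184, 224, 179.9 and 122 CPM in WT sham, 150, 280.4, 179 and 412 in WT AngII and 151, 166, 112, 275 and 98.9 in KO AngII (log2 fold change 0.53 ± 0.37, edgeR adjusted p = 0.336). Zfp36, which speeds the decay of inflammatory mRNAs, had 70.4, 80.1, 71.2 and 58.8 CPM in WT sham, 67.2, 112, 78.8 and 118 in WT AngII and 59.8, 67.1, 56.9, 126 and 56.03 in KO AngII (log2 fold change 0.42 ± 0.27, edgeR adjusted p = 0.277). Gadd45b had 15.6, 21.6, 20.7 and 17.5 CPM in WT sham, 24.7, 14.01, 29.1 and 24.01 in WT AngII and 16.6, 17.3, 18.1, 19.4 and 17.4 in KO AngII (log2 fold change 0.29 ± 0.17, edgeR adjusted p = 0.242). In these 3 genes the WT AngII and sham libraries overlapped.

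Socs3, the inhibitor of JAK and STAT signalling, had 10.1, 8.84, 7.83 and 9.19 CPM in WT sham, 12.3, 7.57, 19.5 and 8.84 in WT AngII and 15.2, 10.4, 9.74, 18.1 and 26.02 in KO AngII (log2 fold change 0.42 ± 0.33, edgeR adjusted p = 0.389). Cebpd, an acute phase transcription factor, had 23.6, 24.2, 35.2 and 21.7 CPM in WT sham, 40.3, 78.2, 33.8 and 38.02 in WT AngII and 35.6, 64.1, 31.1, 71.5 and 42.9 in KO AngII (log2 fold change 0.86 ± 0.33, edgeR adjusted p = 0.0762). WT AngII replicate 4, so high for Fos and Fosb, was not high for either: it had 8.84 CPM of Socs3 and 38.02 CPM of Cebpd. The 10 genes not given above, Ier3, Ier5, Klf10, Dusp5, Dusp6, Btg2, Gadd45a, Gadd45g, Hspa1b and Cebpb, had changes from -0.17 (Dusp6) to 0.87 (Gadd45g), and the lowest edgeR adjusted p among them was 0.0652 (Ier3). Between KO and WT AngII they ran from -0.65 (Btg2, -0.09 ± 0.27 without WT AngII replicate 4) to 0.59 (Klf10).

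Without WT AngII replicate 4 the median change over the 37 genes was 0.34, 27 were above 0, and 8 genes were called higher and 2 lower, where 27% of all genes were called. The 8 were Fosl2, Junb, Egr2, Nr4a3, Klf2, Klf4, Myc and Maff, and the 2 were Fosb and the phosphatase gene Dusp6 (-0.25 ± 0.08, edgeR adjusted p = 0.0375). Other cell type markers moved with AngII in the aorta. The summed level of 12 fibroblast markers was 8161 to 8927 CPM in WT sham and 13390 to 29060 CPM in WT AngII, that of 12 macrophage and monocyte markers 628.2 to 765 and 845.1 to 1143 CPM, and that of 12 smooth muscle markers 35380 to 43640 and 20810 to 39510 CPM. Sums give abundant markers most weight. With all libraries, 6 fibroblast markers were called higher, among them Col1a1 (2.43 ± 0.23), and 1 lower. All 12 macrophage and monocyte markers were called higher, and 3 smooth muscle markers lower and 0 higher (25.5% of all genes called). No marker of these 3 lists was at 0 in any of these libraries. Their part in the changes was not tested, and in whole vessels fewer cells of a type and less RNA per cell cannot be told apart.

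Between KO AngII and WT AngII aortas, 0 of the 37 genes were called, as against 1 gene or 0.00593% of the 16863 tested. The 37 nonetheless leaned one way. The fitted change was above 0 for 6 of the 37, against 47.3% of all genes, the median was -0.30 against -0.01 over all genes, and 10 of the 37 had an unadjusted p below 0.05, against 3.61% of all genes. The lowest adjusted p was 0.981. In 0 of the 37 genes did the 5 KO libraries and the 4 WT libraries separate, against 0.967% of all genes. DESeq2 called 0 as well.

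The largest differences were those of Nr4a1 (-1.82 ± 0.57), Fosb (-1.78 ± 0.71), Fos (-1.63 ± 0.84), Atf3 (-1.37 ± 0.65), Egr1 (-0.98 ± 0.35), Nr4a3 (-0.97 ± 0.38), Egr3 (-0.91 ± 0.39) and Jun (-0.81 ± 0.33), all lower in KO and none called. All 8 were also among the 30 genes that stood highest in WT AngII replicate 4 over the rest of its group, described below. Without that library the difference was -0.01 ± 0.27 for Fosb, -0.05 ± 0.66 for Fos, -0.09 ± 0.43 for Atf3 and -0.24 ± 0.18 for Jun. It was -0.75 ± 0.36 for Nr4a1, -0.54 ± 0.28 for Egr1, -0.38 ± 0.25 for Nr4a3 and -0.25 ± 0.24 for Egr3. The 95% interval for Fosb was -3.35 to -0.20 with the library and -0.59 to 0.57 without it.

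Over the 37 genes the median difference without WT AngII replicate 4 was -0.07, 26 genes were below 0 and 3 had an unadjusted p below 0.05. Leaving out any other of the 13 aortic libraries gave medians down to -0.49, the value without KO AngII replicate 4. The lean towards lower values in KO aortas was largest without the KO library in which the genes were highest, and smallest without the WT library in which they were highest.

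**Figure D3:**
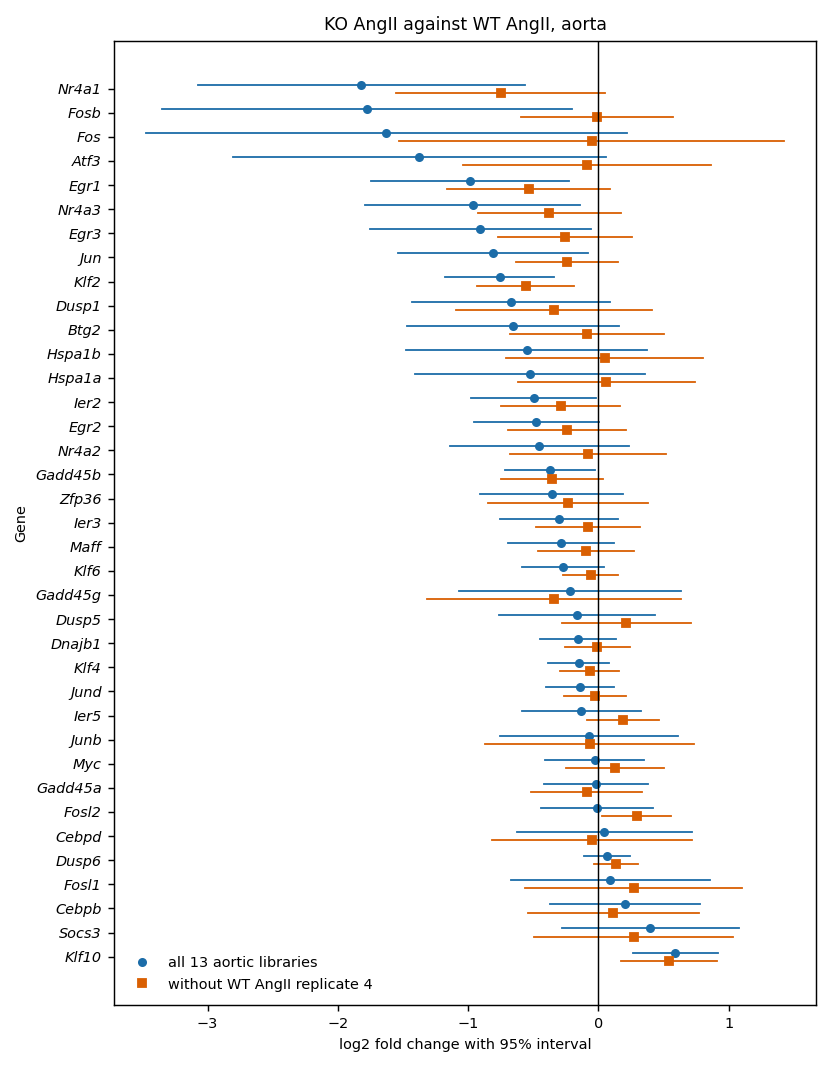
Each row is a gene, with the log2 fold change of KO AngII against WT AngII in the aorta and its 95% interval, from all 13 aortic libraries (blue circles) and without WT AngII replicate 4 (orange squares). The 8 largest differences shrink towards 0 without the library, and those of Klf2 and Klf10 go from -0.76 to -0.56 and from 0.59 to 0.54.

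Of the 10 genes with an unadjusted p below 0.05, Klf2 and Klf10 stayed below it without that library, when Fosl2 (0.29 ± 0.12) was the other. Klf2 was -0.76 ± 0.19 with all libraries and -0.56 ± 0.17 without replicate 4 (unadjusted p = 0.00182 and 0.00686). The KO libraries, at 63.8, 73, 52.6, 60.01 and 43.7 CPM, overlapped WT AngII only through WT replicate 3 at 67.0 CPM. Klf10, a TGF-β-induced repressor, was the only gene of these 10 that was higher in KO. It had 23.04, 19.9, 15.5 and 23.3 CPM in WT sham, 35.6, 24.6, 24.1 and 24.7 in WT AngII and 38.8, 32.9, 40.4, 42.6 and 50.7 in KO AngII. The KO libraries lay above WT AngII replicates 2 to 4, and WT replicate 1 lay among them (0.59 ± 0.15 with all libraries, 0.54 ± 0.17 without replicate 4). Neither gene passed the adjustment over all genes in edgeR (adjusted p = 0.981 and 0.981). In DESeq2 the adjusted p was 0.185 for Klf2 and 0.202 for Klf10. A two-sided exact permutation test of each gene alone gave an unadjusted p of 0.0238 for Klf2 and 0.0238 for Klf10, where 0.00794 was the smallest possible. Both genes were picked by their values in these same libraries, so these p-values add no separate support.

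**Figure D4:**
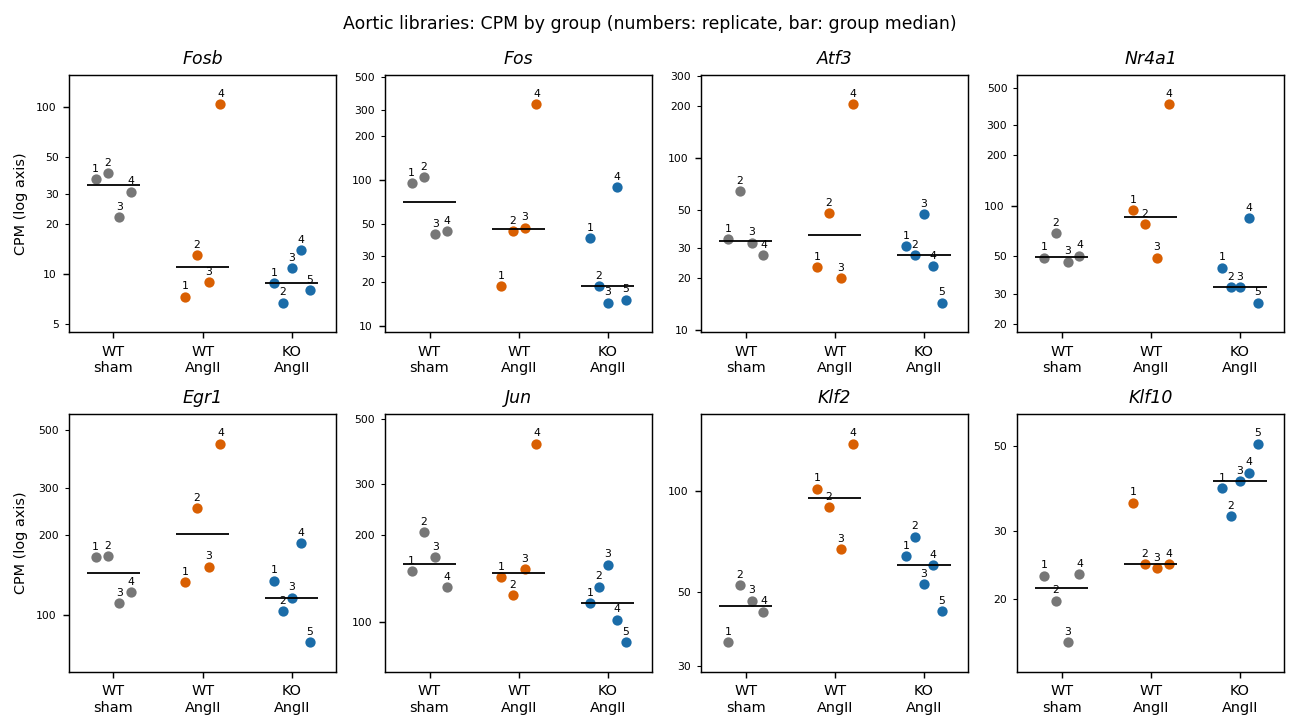
CPM on a log axis of 8 genes in the 13 aortic libraries, with the replicate number beside each point and a bar at the group median. WT AngII replicate 4 is the highest point for Fosb (103.5 CPM), Fos, Atf3, Nr4a1, Egr1, Jun and Klf2, whereas for Klf10 it lies at 24.7 CPM beside replicates 2 and 3.

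WT AngII replicate 4 was the highest of its group for 29 of the 37 genes (28.6% of all genes) and the highest aortic library for 25 (14% of all genes). For 14 of the 37 it was at least 2-fold above the mean log2 level of the other 3 libraries of its group, against 1.59% of all genes. It was at least 2-fold below that level for 0 of the 37, but for 7.02% of all genes, the highest such share of any aortic library. Its median over the 37 genes lay 0.90 above the tissue median on the log2 scale. The next aortic library was KO AngII replicate 4 at 0.47, the highest of its group for 21 of the 37, and the other 11 lay between -0.28 and 0.27. When the 11274 genes with a mean of at least 5 CPM were ranked by how far this library stood above the other 3 of its group, Fosb, Fos, Atf3 and Nr4a1 took ranks 1 to 4. Of the top 30 genes 11 were among the 37, and of the top 100, 16. Among the further genes of the top 30 were Ccn1, Arc, Edn1 and Bdnf, named here after their values were seen.

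The genes did not move as a block in this library. Fosb was at 10.6 times, Fos at 8.94 times and Atf3 at 6.77 times the mean of the other 3 WT AngII libraries, and Egr3, Nr4a3, Hspa1a and Hspa1b were at 3.01 to 3.30 times that mean. Junb (1.01 times) and Gadd45b (1.06 times) were near it. Gadd45g and Socs3 (both 0.67 times), Cebpd (0.75 times), Cebpb (0.77 times), Gadd45a (0.82 times) and Klf10 (0.88 times) were below it. KO AngII replicate 4 had another profile: it was the highest of its group for Fos (89.2 CPM), Fosb, Egr1, Nr4a1, Junb, Zfp36, Dusp1, Gadd45g and Cebpb, but it had 23.5 CPM of Atf3 and 102 CPM of Jun, each below 3 of the other 4 KO libraries.

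**Figure D5:**
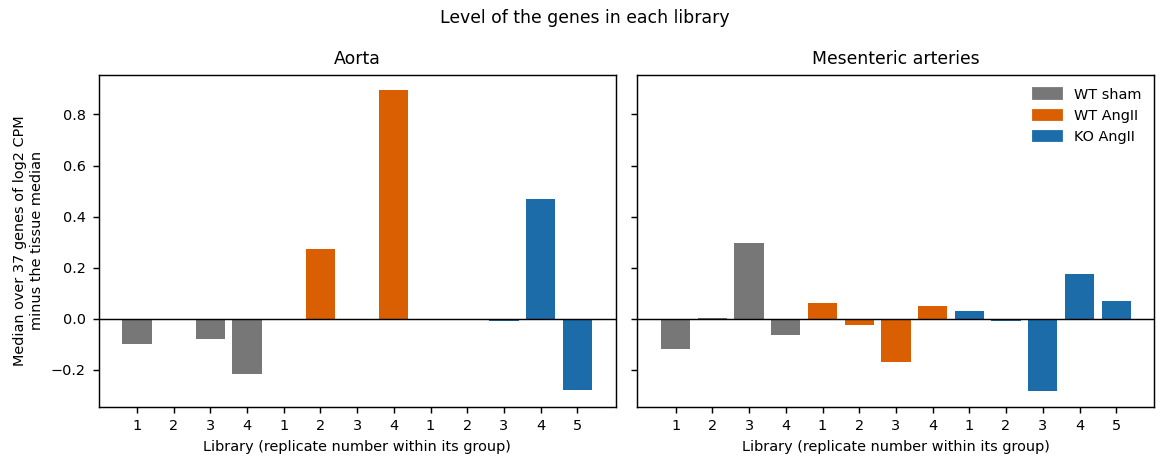
Bars give, for each library, the median over the 37 genes of log2 CPM minus the median of its tissue. WT AngII replicate 4 reaches 0.90 in the aorta, KO AngII replicate 4 is next at 0.47, and the mesenteric libraries lie between -0.28 and 0.30.

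Other measures of WT AngII replicate 4 stood at the edge of its group. Its smooth muscle marker sum (39510 CPM) and endothelial sum (1320 CPM) were the highest of the 4 WT AngII libraries, and its fibroblast (13390 CPM), macrophage and monocyte (845.1 CPM), lymphocyte (18.27 CPM) and adipocyte (807.5 CPM) sums were the lowest. Its shares of records not aligned, 0.57%, and not uniquely aligned, 5.357%, were the lowest of the 13 aortic libraries. Its shares with too low alignment quality, 2.464%, and of ambiguous records, 1.279%, were the highest. Its TMM scaling factor, 0.9244, was the lowest. Its Sphk1 level, 11.6 CPM, was the lowest of the WT AngII aortas. The part of these measures in its Fos, Fosb, Atf3 and Nr4a1 levels was not tested.

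Against WT sham, KO AngII aortas had 11 of the 37 genes higher and 0 lower. Over all genes 30.8% were called, 16.6% higher and 14.2% lower, so the share of the 37 called was near that of all genes. An unadjusted p below 0.05 was found for 14 (41.4% of all genes), 23 were above 0 (49% of all genes), and the groups did not overlap for 9 with KO higher (16.8% of all genes) and for 1, Fosb, with KO lower (15.5%). The 11 were Fosl1, Fosl2, Junb, Egr2, Nr4a3, Klf4, Klf10, Myc, Maff, Cebpb and Cebpd. Of 20 alternatives, 12 lost the call of Cebpd, 8 that of Cebpb, 6 that of Fosl1 and 2 that of Nr4a3. The change of Cebpd was 0.91 here (edgeR adjusted p = 0.047) and 0.86 in WT (edgeR adjusted p = 0.0762). Without KO AngII replicate 4, 8 of the 37 were called, all higher (26.1% of all genes called). This comparison shares its sham libraries with that of WT AngII. Side by side, the changes were 1.44 ± 0.41 here and 2.40 ± 0.43 in WT for Nr4a3, 1.43 ± 0.19 and 1.46 ± 0.20 for Myc, 1.16 ± 0.24 and 1.63 ± 0.25 for Egr2, 0.92 ± 0.20 and 1.21 ± 0.21 for Maff, and 0.53 ± 0.11 and 0.69 ± 0.12 for Klf4. Klf10 rose in KO (log2 fold change 1.01 ± 0.15, edgeR adjusted p = 0.000274), with every KO library above every sham library. Its WT AngII libraries, from 24.1 CPM upwards, also all lay above sham, at most 23.3 CPM. That WT change did not pass (log2 fold change 0.42, edgeR adjusted p = 0.0727). Klf2 did not pass in KO (log2 fold change 0.40 ± 0.20, edgeR adjusted p = 0.15). Fosb was lower in all 5 KO libraries than in all 4 sham libraries (log2 fold change -1.75 ± 0.71, edgeR adjusted p = 0.0871). Such separation fixes the exact permutation p at the smallest possible value, 0.00794 unadjusted, so that p adds no separate support. Fosb was called lower when WT AngII replicate 4 was left out of the fit (-1.75 ± 0.24, edgeR adjusted p = 0.00018). The groups of a fit share 1 estimate of the spread, and the part of this in the call was not tested. In the fit without WT AngII replicate 4, 11 genes were higher and 2 lower (34.4% of all genes called), the other lower gene being Jun (-0.47 ± 0.17, edgeR adjusted p = 0.0452). Without sham replicate 1, 7 of the 37 were called, all higher, where 2489 of all 17120 genes were called higher and 2068 lower.

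In the mesenteric arteries 0 of the 37 genes were called in any of the 3 comparisons by edgeR. Over all 17513 genes, 0.183% were called for WT AngII against sham, 0.00571% for KO AngII against WT AngII and 0.708% for KO AngII against sham. Unadjusted p-values below 0.05 were found for 8, 3 and 16 of the 37, against 10.6%, 4.98% and 19.1% of all genes. The medians over the 37 were 0.04, 0.09 and -0.04, and 20, 22 and 18 genes were above 0, against 49.9%, 55.1% and 52.2% of all genes. With AngII in WT, 3 genes were higher with no overlap of the groups (4.53% of all genes) and 3 lower (4.23%). For KO AngII against sham, 2 were higher (3.22%) and 2 lower (3.68%), and KO and WT AngII separated for 0 (1.65%). DESeq2 called 1 gene after AngII (lower), 0 between KO and WT AngII and 8 in KO AngII against sham (6 higher and 2 lower). Over all 17513 genes it called 238 higher and 71 lower after AngII, 1 and 1 between KO and WT AngII, and 898 and 507 in KO AngII against sham.

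Fosb in these arteries had 12.2, 20.2, 28.8 and 14.2 CPM in WT sham, 8.85, 8.31, 7.38 and 11.1 in WT AngII and 12.1, 6.55, 6.17, 9.84 and 9.41 in KO AngII. The AngII libraries of both genotypes lay below the lowest sham library, as in the aorta apart from WT AngII replicate 4, and the change was -1.08 ± 0.28 in WT and -1.09 ± 0.26 in KO (edgeR adjusted p = 0.191 and 0.0769). Fosl1 was near the low end of the counts, with 0.496, 0.267, 0.142 and 0.155 CPM in WT sham, 0.334, 1.16, 0.917 and 0.801 in WT AngII and 1.06, 0.967, 0.639, 1.28 and 0.988 in KO AngII. Its changes were 1.58 ± 0.45 and 1.86 ± 0.43 (edgeR adjusted p = 0.224 and 0.0735).

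Fos had 111, 159.5, 182 and 81.6 CPM in WT sham, 123, 83.6, 94.2 and 108 in WT AngII and 120.1, 56.2, 45.1, 70.2 and 84.9 in KO AngII, with overlapping groups (log2 fold change -0.82 ± 0.28, edgeR adjusted p = 0.164 for KO against sham). Atf3 had 61.5, 95.8, 191 and 69.6 CPM in WT sham, 52.7, 41.5, 33.9 and 74.8 in WT AngII and 96.2, 52.5, 42.3, 71.6 and 62.5 in KO AngII, and sham replicate 3 stood alone at the top (log2 fold change -1.04 ± 0.37, edgeR adjusted p = 0.348 for WT AngII). Jun had 223, 313, 367 and 239.5 CPM in WT sham, 216, 163, 198 and 263 in WT AngII and 279, 158, 144, 182 and 234 in KO AngII (log2 fold change -0.52 ± 0.22, edgeR adjusted p = 0.216 for KO against sham). Sham replicate 3 was the highest of its group for 26 of the 37 genes and the highest mesenteric library for 14.

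Egr1 had 163, 188, 194 and 170 CPM in WT sham, 188, 168, 138 and 169.9 in WT AngII and 148, 111, 70.5, 116 and 133 in KO AngII. All KO libraries lay below all sham libraries, and its difference between KO and WT AngII was -0.52 ± 0.17 (edgeR adjusted p = 0.798). Nr4a1 had 122, 156, 222 and 117 CPM in WT sham, 224, 181, 118 and 219 in WT AngII and 175, 108, 78.9, 190.2 and 135 in KO AngII, with no separation between groups (log2 fold change -0.43 ± 0.28, edgeR adjusted p = 0.798 for KO against WT AngII). Gadd45b had 14.6, 11.8, 10.2 and 11.2 CPM in WT sham, 16.3, 13.7, 19.2 and 13.2 in WT AngII and 21.6, 14.8, 23.5, 16.3 and 21.8 in KO AngII, all KO libraries above all sham libraries (log2 fold change 0.71 ± 0.17, edgeR adjusted p = 0.0742).

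Myc had 8.46, 6.32, 6.23 and 9.23 CPM in WT sham, 8.13, 11.2, 6.06 and 8.82 in WT AngII and 9.19, 13.5, 18.9, 11.1 and 14.4 in KO AngII (log2 fold change 0.82 ± 0.23, edgeR adjusted p = 0.107 for KO against sham). Klf2 had 107, 142, 199 and 131 CPM in WT sham, 145, 104, 123 and 136 in WT AngII and 104, 122, 107, 89.8 and 151 in KO AngII and Klf10 had 48.5, 52.9, 42.7 and 50.2 CPM in WT sham, 56.8, 60.4, 47.01 and 45.02 in WT AngII and 49.6, 67.98, 80.6, 52.4 and 61.03 in KO AngII. Between KO and WT AngII they differed by -0.14 ± 0.18 and 0.25 ± 0.14 (edgeR adjusted p = 0.865 and 0.798), and both groups overlapped for each gene.

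Among the other genes whose aortic values are given above, Fosl2 had 119, 168, 192 and 129 CPM in WT sham, 225, 180.5, 177 and 224 in WT AngII and 196, 187, 136, 201 and 189 in KO AngII. Junb had 53.8, 49.5, 64.96 and 55.05 CPM in WT sham, 61.95, 69.5, 55.3 and 51.6 in WT AngII and 74.7, 68.02, 58.7, 81.2 and 64.98 in KO AngII. Maff, higher in all 4 WT AngII libraries than in sham, had 17.7, 17.2, 17.8 and 19.5 CPM in WT sham, 26.1, 24, 24.2 and 26.1 in WT AngII and 25.1, 27.8, 17.1, 21.02 and 28.6 in KO AngII (log2 fold change 0.47 ± 0.14, edgeR adjusted p = 0.232).

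Egr2 had 7.79, 6.44, 9.77 and 6.75 CPM in WT sham, 10.8, 15.6, 7.18 and 9.22 in WT AngII and 9.62, 11.2, 10.9, 10.7 and 9.84 in KO AngII. Nr4a3 had 9.17, 8.72, 11.7 and 9.54 CPM in WT sham, 11.8, 18.2, 8.89 and 14.8 in WT AngII and 8.04, 22.4, 11.4, 19.8 and 13.3 in KO AngII. Klf4 had 128, 133, 84.2 and 146 CPM in WT sham, 96.5, 103, 129.5 and 133 in WT AngII and 117, 115, 96.4, 78.3 and 120.3 in KO AngII. For these 3 genes, which rose in the aorta, the mesenteric AngII and sham libraries overlapped.

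Egr3 had 8.89, 15.04, 14.4 and 17.8 CPM in WT sham, 14.03, 10.7, 9.25 and 11.5 in WT AngII and 11.8, 7.55, 18.3, 9.403 and 12.3 in KO AngII. Ier2 had 38.6, 38.96, 61.8 and 38.6 CPM in WT sham, 36.1, 34.7, 36.4 and 38.2 in WT AngII and 39.2, 32.1, 28.6, 30.9 and 37.4 in KO AngII, with sham replicate 3 at 61.8 CPM far above the rest. Dusp1 had 203, 262, 246 and 176 CPM in WT sham, 248, 248, 232 and 316 in WT AngII and 291, 187, 114, 278 and 241 in KO AngII. These 3 showed no separation of KO from WT AngII.

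Zfp36 had 108, 109, 143 and 88.1 CPM in WT sham, 128, 130.4, 84.5 and 109 in WT AngII and 111, 93.2, 88.7, 135 and 108 in KO AngII. Hspa1a had 58.5, 95.5, 195 and 99.2 CPM in WT sham, 86.6, 62.3, 45.4 and 89.4 in WT AngII and 69.8, 87.3, 33.2, 145 and 177 in KO AngII, a 5.87-fold span between its lowest and highest library. Socs3 had 13.7, 11.8, 15.8 and 14.1 CPM in WT sham, 17.4, 20.96, 12.4 and 12.8 in WT AngII and 18.3, 38.1, 32.7, 14.4 and 19.04 in KO AngII, with KO replicates 2 and 3 the highest. Cebpd had 32.5, 24.1, 61.9 and 31.1 CPM in WT sham, 30.5, 65.2, 23.4 and 34.1 in WT AngII and 30.8, 74.1, 30.1, 63.7 and 48 in KO AngII, with WT AngII replicate 2 and KO replicates 2 and 4 high, as in the aorta, and sham replicate 3 high as well.

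The mesenteric libraries varied in what else they held. The summed level of 12 gut and pancreas markers ran from 15.7 to 76220 CPM and that of 12 lymphocyte markers from 32.41 to 1527 CPM, whereas in the aorta 2 to 8 of the 12 gut and pancreas markers were at 0 in each library and the sum was at most 8.346 CPM. In 4 mesenteric libraries, WT AngII 1 and KO AngII 2, 3 and 4, 11.43 to 14.7% of records were not aligned. Their part in the results was not tested. Without these 4, Gadd45b and Maff were called higher for KO AngII against sham (1.62% of all genes called). Of the KO group that fit held replicates 1 and 5 alone, so these calls rest on few libraries.

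The AngII effect itself differed between tissues for 3 of the 37 genes, Klf2, Myc and Nr4a3, each with the smaller value in the mesenteric vessels (2.34% of 18520 genes called, 1.66% in this direction and 0.68% in the other). The difference of the effects was -1.35 ± 0.30 for Klf2, -1.29 ± 0.32 for Myc and -1.95 ± 0.52 for Nr4a3 (edgeR adjusted p = 0.0148, 0.0297 and 0.0467). It was below 0 for 35 of the 37 genes, with a median of -0.79 against -0.01 over all genes. Without aortic WT AngII replicate 4 the median was -0.41, 29 genes were below 0 and Klf2 and Myc were called. Leaving out 1 library at a time gave 1 to 5 genes called, the lowest count without any of 7 libraries (aortic sham 1, 3 and 4, mesenteric sham 1 and 4, mesenteric WT AngII 1 and 3) and the highest without aortic KO AngII replicate 4. DESeq2 called 7, all lower, where it called 322 of all 18520 genes higher and 545 lower. The main fit took the libraries of both tissues as independent, though some may come from the same mice. With a block for equal group and number, the calls of Myc and Nr4a3 were lost. For the KO effect the tissues did not differ in any of the 37 at the adjusted threshold (0% of all genes called). DESeq2 called 0 of the 37 as well, and 4 higher and 11 lower of all genes. The median difference of the KO effect was 0.38, and 0.17 without aortic WT AngII replicate 4. With all libraries 35 genes were above 0 (54.2% of all genes) and 7 had an unadjusted p below 0.05 (4.04% of all genes). Without that library 27 were above 0 and 2 had such a p.

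Set against the sham aorta, the sham mesenteric arteries had 12 of the 37 genes higher and 2 lower. Over all genes 38.4% were called, 20.7% higher and 17.7% lower, so the share of the 37 called was near that of all genes. With aortic WT AngII replicate 4 left out of the shared fit, 16 were higher and 3 lower, and again 38.4% of all genes were called. Klf2 (1.60 ± 0.21), Junb (1.54 ± 0.26), Myc (1.498 ± 0.23), Egr2 (1.44 ± 0.24), Klf10 (1.16 ± 0.16) and Klf4 (0.98 ± 0.16) were higher with adjusted p between 2.14e-06 and 4.9e-05 in edgeR. Dusp6 was higher as well (0.54 ± 0.11), with 38.5, 36.5, 32.7 and 33.7 CPM in the sham aortas and 48.6, 51, 67.98 and 52.6 CPM in the sham mesenteric arteries. The 2 lower genes were Gadd45b (-0.74 ± 0.18) and Fosl1 (-1.79 ± 0.46). Of the 12 endothelial markers 11 were higher as well (median 2.03 on the log2 scale), with a summed level of 1170 to 1311 CPM in the sham aortas and 4510 to 4870 CPM in the sham mesenteric arteries. Of the 12 Schwann cell and neuron markers 9 were higher and 1 lower, with sums of 668.5 to 785.7 and 1067 to 1450 CPM, and of the 12 gut and pancreas markers 10 were higher. Their part in the levels of Klf2 and the other genes was not tested. Tissue and any batch of library making cannot be told apart here.

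Per length of transcript (CPM per kb of exon, with exon lengths from GENCODE M21 on the older build), Jund was the most abundant of the 37 in the sham aorta, with a median of 119.5 CPM per kb, followed by Dusp1 at 55.0, Klf6 at 50.9 and Jun at 49.7. Fosl1 was lowest at 0.387, after Egr2, Myc and Nr4a3 at 0.736 to 1.05. By the group medians Fos stood at rank 7 in WT sham, rank 15 in WT AngII and rank 27 in KO AngII. Fosb went from rank 26 to rank 36 in both AngII groups, and Junb from rank 24 to ranks 16 and 18. These ranks carry no test, and with 4 libraries in a group the median of WT AngII gives replicate 4 little weight.

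Other genes of the same pathways, from lists that do not hold the 37, were counted beside them. Of 36 tested further immediate early genes, 13 rose and 1 fell with AngII in the aorta (median 0.49), among them Thbs1 (3.02 ± 0.25), Ptgs2 (2.17 ± 0.33) and Plk2 (1.59 ± 0.21), at edgeR adjusted p of 5.9e-06, 0.000561 and 0.000149. In this list WT AngII replicate 4 was again the highest aortic library, at 0.45 above the tissue median, and KO AngII replicate 4 was next at 0.24. Among 22 feedback regulators of the ERK pathway 8 rose and 1 fell, with Elk3 (0.64 ± 0.08) and Spry4 (0.87 ± 0.12) leading, and replicate 4 stood at 0.05. The 22 genes of the heat shock response divided into 3 that rose and 3 that fell. Of 26 early genes of NF-κB and the acute phase 10 rose and 0 fell, of 18 glucocorticoid-induced genes 5 rose and 1 fell, and of 20 targets of the integrated stress response and p53 11 rose and 3 fell, led by Cdkn1a (1.32 ± 0.09). Of 14 endothelial shear stress genes 3 rose and 0 fell. Some genes, such as Cdkn1a, are in more than 1 list. In these 7 lists 0 genes were called between KO and WT AngII aortas, with medians from -0.11 to 0.14. For all of these 25.5% of all genes were called with AngII.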

How the data were processed

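Gene counts of 26 libraries (poly(A) RNA, directional kit, paired reads) were used as deposited, 1 HTSeq table per library. Per the submitters' processing notes, cutadapt, HISAT2 and HTSeq were used with build GRCm39. Versions, and whether counting used strand, are not given in the sources used here, so reads of overlapping and antisense genes may not be separated. The 5 summary lines of each table were left out. Groups came from the labels.

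Counts were filtered (filterByExpr), TMM-scaled and tested per tissue, with the 3 groups in 1 fit, by edgeR 4.0.16 quasi-likelihood in R 4.3.3, and tissue differences over all 26 libraries. Adjusted p-values (Benjamini-Hochberg) cover all genes tested, with a threshold of 0.05. They judge a difference against the spread between replicate libraries, estimated over all groups of the fit. CPM used TMM-scaled library sizes. The main edgeR fit was tested on simulated counts for 1 comparison per tissue. These counts held no deviation of a whole library, and the other methods were not tested so. Alternatives were DESeq2 1.42.0, limma 3.58.1 voom with quality weights, other scalings and filters, a replicate block and leaving out libraries.

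The genes and lists were chosen with earlier results of these data known. Values in every library are given for 15 fixed genes, for up to 8 called genes per comparison and for the 8 largest differences between KO and WT AngII aortas. The CRE core, the comparison across tissues and the fit without 4 mesenteric libraries were added after the values were seen.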

Additional observations from a re-analysis of the deposited data

Results flagged for a closer look

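Of 222 sets of 4 or 5 libraries of 1 gene in 1 group, 20 held a library whose gap to its nearest neighbour was large against the range of its group, and chance gives about 1 in 20. WT AngII replicate 4 of the aorta stood apart upwards for Fos (327.6 CPM), Fosb (103.5 CPM), Jun (412.5 CPM), Atf3 (205.2 CPM), Nr4a1 (398.4 CPM) and Ier5 (55.83 CPM). KO AngII replicate 4 of the aorta did so for Junb (83.91 CPM), Nr4a1 (84.17 CPM), Zfp36 (126.5 CPM) and Gadd45g (44.92 CPM). In KO AngII replicate 1 of the aorta both Hsp70 genes stood apart downwards, Hspa1a at 36.96 CPM and Hspa1b at 44.83 CPM.

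Single values in the aorta were those of Klf10 in WT AngII replicate 1 (35.62 CPM), of Gadd45g (47.02 CPM) and Cebpd (78.24 CPM) in WT AngII replicate 2 and of Ier5 in WT sham replicate 2 (37.61 CPM). In the mesenteric arteries they were Fosl2 in KO AngII replicate 3 (135.5 CPM, low), Dusp5 in WT AngII replicate 4 (4.854 CPM), and Ier2 (61.8 CPM) and Cebpb (31.96 CPM) in WT sham replicate 3.

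The change with AngII differed between the tissues by a test of the difference itself for Nr4a3 (-1.953 on the log2 scale, mesenteric minus aorta), Klf2 (-1.353) and Myc (-1.294). That test took the libraries of both tissues as independent.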

How the results depend on the processing

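Where counts of called genes or medians moved, the cause was not tested. In the aorta, leaving out 1 library at a time gave 8 to 13 genes called for WT AngII against sham, with medians of 0.339 (without WT AngII replicate 4) to 0.851, and 7 to 13 called for KO AngII against sham. In WT AngII against sham Fos turned to -0.267 with limma voom, to -0.188 with the replicate block and to -0.964 without WT AngII replicate 4. Fosb turned to -0.137 with library size alone, to -1.025 with limma voom, to -0.765 with the replicate block, to -1.742 without WT AngII replicate 4 and to -0.107 without sham replicate 3. Jun turned to -0.18 with limma voom and -0.229 without WT AngII replicate 4, Atf3 to -0.376 and Hspa1a to -0.275 without it, and Gadd45b to -0.177 with limma voom. On leaving out 1 library the highest values were 0.969 for Fos, 0.362 for Fosb, 0.53 for Jun and 1.246 for Atf3.

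In the mesenteric arteries KO AngII against sham had a median of 0.156 with limma voom, where the sign turned, and 8 genes called by DESeq2, 3 by limma voom, 2 without the 4 libraries with many records not aligned and 0 to 1 on leaving out 1 library. Without those 4, the KO group held replicates 1 and 5 alone. For WT AngII against sham 1 gene was called by DESeq2, by limma voom and with only the 2 groups compared, and 0 to 1 on leaving out 1 library. The tissue difference of the AngII effect had a median of -0.459 with limma voom and -0.903 to -0.415 on leaving out 1 library. With a block that takes equal group and number in both tissues as the same mouse, it was -0.517. Its genes called were 7 by DESeq2, 1 with library size alone, 5 by limma voom and 1 to 5 on leaving out 1 library. The call of Nr4a3 there was lost in 23 of 32 alternatives and that of Myc in 9, in both cases also with that block.

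The labels do not say whether replicate numbers mark a mouse, and by the rule that every pair correlate above 0.1 they were not taken to pair the samples: deviations of same-numbered libraries correlated above 0.1 in 6 of 24 pairs within a tissue (-0.402 to 0.309) and in 4 of 13 between tissues (-0.129 to 0.198). Failing this rule cannot show that equal numbers mark different mice. Some genes did correlate by number between the tissues, as given below, and others did not. Scaling by library size alone shifted the median of all genes in aortic WT AngII against sham to -0.1256. With 4 or 5 libraries a group, genes as variable as Fos and Fosb are measured with wide intervals.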

Other observations

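Deviations shared between the tissues were looked for after values were seen. For each gene, log2 CPM minus the group mean was compared between the aortic and the mesenteric library of the same group and number, over 13 numbers and 10944 genes with a mean of at least 5 CPM in both tissues. The labels do not say that equal numbers mark the same mouse, and the libraries share groups of 4 or 5, so the values are a description.

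Cebpd, an acute phase transcription factor, had the highest correlation of the 10944 genes, r = 0.931 (rho = 0.857, and r = 0.928 without the 2 farthest numbers). In WT AngII replicates 1 to 4 it had 40.3, 78.2, 33.8 and 38.02 CPM in the aorta and 30.5, 65.2, 23.4 and 34.1 CPM in the mesenteric arteries. In KO AngII replicates 1 to 5 it had 35.6, 64.1, 31.1, 71.5 and 42.9 CPM and 30.8, 74.1, 30.1, 63.7 and 48 CPM. Gadd45g followed at r = 0.861 (rank 11, and r = 0.737 without the 2 farthest numbers). Fos (0.17), Fosb (0.186), Atf3 (0.275) and Egr1 (-0.019) had low values and Socs3 a negative one (-0.685).

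Of the 35 genes of the set that could be compared, 7 were above 0.5 (20%, against 5.24% of all genes), with a median of 0.223. Beside Cebpd and Gadd45g these were Cebpb (0.664), Dnajb1 (0.572), Dusp1 (0.533), Hspa1b (0.517) and Nr4a1 (0.51). Without the 2 farthest numbers Dusp1 (0.365), Hspa1b (0.469) and Nr4a1 (0.408) were below 0.5, and Cebpb (0.629) and Dnajb1 (0.588) were above it. Nr4a1, Hspa1b and Dusp1 were also high in WT AngII replicate 4 of the aorta. Among 16 glucocorticoid-induced genes the median was 0.627 and 11 were above 0.5. Per1 (0.89), a clock gene, Tsc22d3 (0.863) and Sgk1 (0.832) were among them. In the other lists the median was 0.39 for 33 further immediate early genes (11 above 0.5), 0.237 for 17 targets of the integrated stress response and p53 (4 above), 0.167 for 22 heat shock genes (4 above), 0.09 for 20 ERK feedback regulators (1 above), 0.01 for 12 endothelial shear stress genes (0 above) and -0.042 for 15 early genes of NF-κB and the acute phase (0 above).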
